A study of Mus musculus with 89 samples.

Results

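Lungs of mice that received 40 μg/mouse of carboxylated copper oxide nanoparticles (CuO COOH) were compared with lungs of mice that received 2.5 μg/mouse of the same material. Both groups were PBS-challenged, and each held 3 samples (S1, S2 and S3), so that 6 of the 89 samples in the series make up the comparison. A further group of 3 samples, given 10 μg/mouse, lies between them. These samples were chosen from the sample labels for material, dose and challenge alone. All mice were female BALB/c of 6 to 8 weeks, sensitized to ovalbumin with alum (OVA/Alum), and received the particles by oropharyngeal aspiration on 4 consecutive days, with tissue taken 24 h after the last dose. The 7 PBS controls were sensitized in the same manner but received PBS only. RNA came from part of the left lung lobe, a tissue of mixed cell types, taken after the lungs had been lavaged. Cells washed out by the lavage are not in it. It was pooled from 2 extracts per sample and read in 1 colour of an Agilent mouse array. Doses are the weight of the material given at each administration, not the total over the 4 days. As weights of material, they differ in copper between CuO COOH and the other materials of the series. The median spot brightness of the 9 CuO COOH samples was 85 to 180, or 2.29 to 3.81 times the local background, 59.8% to 68.5% of spots were well above background, and no spot was saturated. Surfactant protein C (Sftpc), which only lung makes in quantity, was well above background in all 6 samples.

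Copper oxide particles that reach the airways are taken up by macrophages and epithelial cells and release copper ions inside them. Cells answer excess copper and zinc with metallothioneins, small cysteine-rich proteins that bind these metals, and answer oxidants with genes under the transcription factor NRF2. Injured lung draws in neutrophils and monocytes through chemokines, after which epithelial and stromal cells divide and lay down new matrix.

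At 40 μg/mouse, 30 of 30 cell division genes, 16 of 27 matrix genes and 10 of 20 acute phase genes were called higher than at 2.5 μg/mouse, as were the metallothioneins Mt1 and Mt2. Called lower were 12 of 15 endothelial markers, 12 of 16 oxidative metabolism enzymes, 4 of 6 red cell markers, 7 of 16 resident macrophage markers, 7 of 16 clock genes and 6 of 12 T cell markers. The gene lists were chosen with earlier results of these data known, and the part of that choice in these shares was not tested. In all, 1455 of 22911 genes (6.35%) were differentially expressed (DEGs), 838 higher (3.66%) and 617 lower (2.69%) at 40 μg/mouse. A gene was called a DEG at an adjusted p below 0.05 together with an absolute log2 fold change (log2 FC) above 0.58, in a limma fit over all 89 samples with dye, slide and array position as terms. The change exceeded 1 on the log2 scale in 447 DEGs and 2 in 43. The median log2 FC over all genes was 0, and the median standard error (SE) was 0.116. S1, S2 and S3 of both doses shared a slide and a dye within each number, and 1449 of the 1455 DEGs moved in the direction of the fit in all 3 of these pairs. Of all genes, 55.2% moved in 1 direction in all 3 pairs, and the DEGs were called on these same samples. At 1453 DEGs, the 3 samples at 40 μg/mouse did not overlap the 3 at 2.5 μg/mouse, which was also so for 43.8% of all genes. With the replicate number as a block over the 6 samples alone, 1498 genes were called. Centring each sample on its median instead of quantile normalization left 1029 DEGs, 712 higher and 317 lower, and moved the median log2 FC of all genes to 0.122. With 1 term per array in place of slide and position, 200 genes were called, 163 of them among the 1455, and the median SE was 0.233. S2 at 2.5 μg/mouse was alone on its array and so added nothing to that fit. That fit called 10 cell division genes and 7 matrix genes higher, and 0 endothelial, club, goblet, ciliated and clock genes lower.

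All levels below are batch-adjusted log2 intensities, in the order S1, S2, S3, and each log2 FC is 40 against 2.5 μg/mouse with its SE (n = 3 per group) and its p adjusted over all genes by limma, unless stated otherwise. The gene with the greatest rise was Retnlb, a resistin-like protein secreted by mucosal epithelium. Its level was 6.36, 5.85 and 6.42 at 2.5 μg/mouse and 10.7, 9.51 and 10.84 at 40 μg/mouse, a 17.7-fold difference (log2 FC 4.14 ± 0.41, adjusted p = 4.12e-11). The 2.5 μg/mouse samples lay inside the range of the PBS controls (5.58 to 6.54), and 2 of them were well above background. Spp1, which encodes the secreted matrix protein and macrophage product osteopontin, read 11.72, 10.84 and 11.52 at the low dose and 14.97, 14.9 and 14.81 at the high dose (log2 FC 3.53 ± 0.34, adjusted p = 1.98e-11). Timp1, an inhibitor of matrix metalloproteinases, went from 10.86, 10.14 and 11.18 to 13.84, 13.58 and 13.96 (log2 FC 3.07 ± 0.43, adjusted p = 1.58e-07). Both genes were far apart between doses, with no overlap, and their PBS controls reached no higher than 11.22 and 10.6.

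Arg1, the arginase of alternatively activated macrophages, read 7.4, 6.56 and 8.46 at 2.5 μg/mouse against 10.82, 10.11 and 10.56 at 40 μg/mouse (log2 FC 3.02 ± 0.53, adjusted p = 1.52e-05). Its low-dose samples were widely spread, S2 being the lowest, yet all of them lay under the high-dose samples. Orm1 encodes the plasma acute phase protein orosomucoid and rose from 7.8, 7.23 and 7.92 to 10.59, 9.98 and 10.82 (log2 FC 2.82 ± 0.44, adjusted p = 1.53e-06). Dmbt1, a scavenger receptor-like glycoprotein of mucosal surfaces, rose from 6.07, 5.82 and 5.24 to 8.44, 7.9 and 8.79 (log2 FC 2.67 ± 0.51, adjusted p = 7.57e-05). Ereg, which encodes the epidermal growth factor receptor ligand epiregulin, was not well above background in any sample at 2.5 μg/mouse. It reached 7.94, 7.68 and 8.32 at 40 μg/mouse, 5.56-fold higher in measured intensity (log2 FC 2.47 ± 0.21, adjusted p = 8e-13). This is no exact size, as the low-dose signal was dim.

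**Figure D1:**
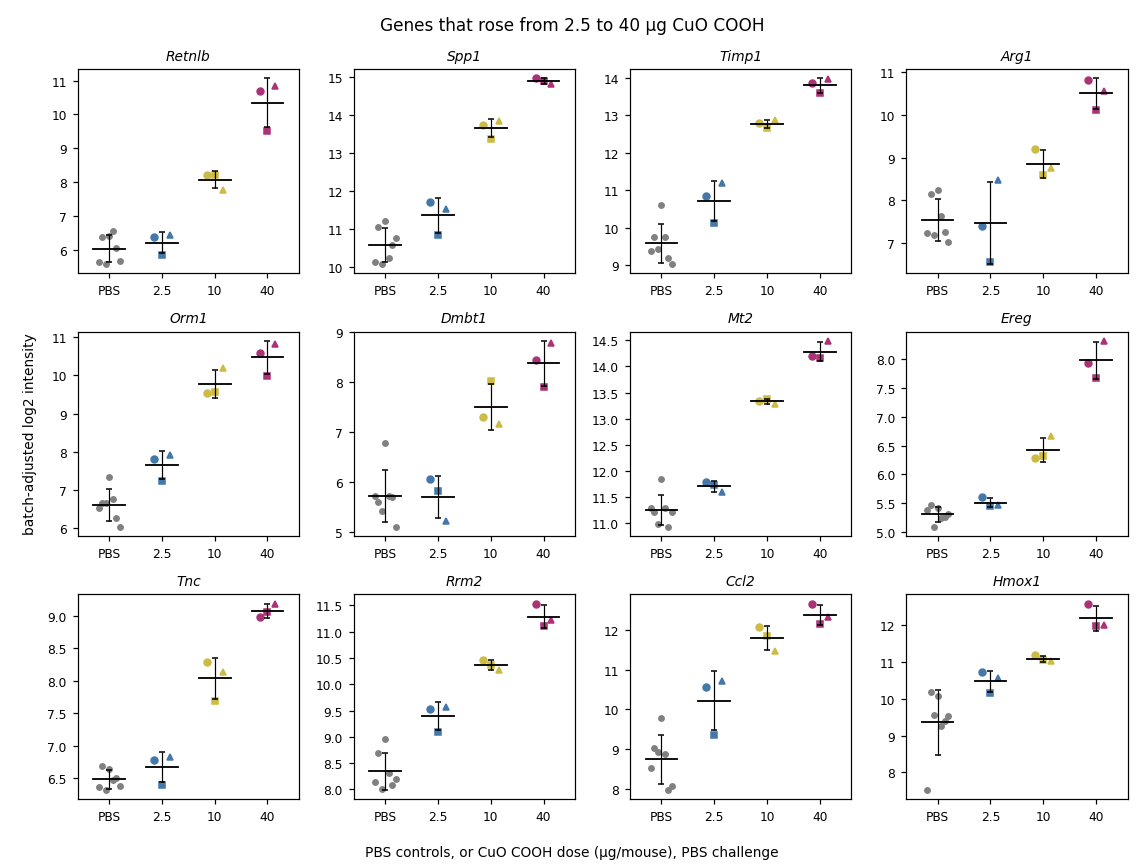
Batch-adjusted log2 intensity (vertical axes, own scale per gene) of 12 genes that rose from 2.5 to 40 μg/mouse CuO COOH, in the 7 PBS controls (grey) and the 3 samples at each dose (circle S1, square S2, triangle S3), with mean (line) and SD (bar). In all 12 panels the 3 samples at 40 μg/mouse lie above the 3 at 2.5 μg/mouse, and for Retnlb the high-dose samples run from 9.51 to 10.84 against 5.85 to 6.42.

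Among 19 measured genes of metallothionein, copper and zinc handling, 3 were called higher and 0 lower, or 15.8% against 3.66% of all genes. Mt2, a metallothionein, read 11.79, 11.72 and 11.59 at 2.5 μg/mouse, 13.33, 13.38 and 13.28 at 10 μg/mouse and 14.19, 14.17 and 14.49 at 40 μg/mouse (log2 FC 2.58 ± 0.31, adjusted p = 5.63e-09). Mt1, its neighbour on the chromosome, read 10.21, 9.95 and 9.76, then 10.83, 10.94 and 10.83 and 11.22, 11.4 and 11.59 (log2 FC 1.43 ± 0.21, adjusted p = 4.64e-07). The PBS controls ran from 10.93 to 11.83 for Mt2 and from 9.55 to 10.23 for Mt1, with the next highest control at 11.29 and 9.87. All low-dose samples of Mt2, and S1 and S2 of Mt1, lay over every control but the highest. For both genes each dose group stood clear of the next. The other gene called was Slc39a14, a zinc, iron and manganese importer (log2 FC 1.11 ± 0.21, adjusted p = 5.83e-05). Slc30a1, the zinc exporter of the cell membrane, had a log2 FC of -0.37 ± 0.11 and was not called. The copper importer Slc31a1 (0.13), the copper pumps Atp7a (-0.09) and Atp7b (-0.21), the copper chaperone Atox1 (0.14) and Mtf1 (0.01), the metal-sensing transcription factor of metallothionein genes, were not called either. Mt4 was not well above background in any of the 6 samples.

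The 250 bases before the start sites of the metallothionein pair are shown because Mt1 and Mt2 rose together and their promoters are the textbook site of metal response elements, the sequences bound by MTF1. Sequences are from RefSeq on GRCm38.p6, plus strand, at chr8:94178839-94179088 for Mt1 and chr8:94172368-94172617 for Mt2. Capitals mark matches to the core TGCACNC or TGCGCNC on either strand.
Mt1: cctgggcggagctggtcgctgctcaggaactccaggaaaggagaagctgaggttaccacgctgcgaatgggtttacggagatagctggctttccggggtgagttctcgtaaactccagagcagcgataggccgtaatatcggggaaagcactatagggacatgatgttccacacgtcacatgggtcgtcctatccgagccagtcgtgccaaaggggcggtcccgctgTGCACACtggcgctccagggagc
Mt2: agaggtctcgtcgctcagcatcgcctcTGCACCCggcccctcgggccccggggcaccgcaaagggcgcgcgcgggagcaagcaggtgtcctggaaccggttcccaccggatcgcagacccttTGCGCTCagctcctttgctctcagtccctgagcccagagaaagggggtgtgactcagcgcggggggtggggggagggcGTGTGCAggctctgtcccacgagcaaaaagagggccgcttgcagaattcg
The window of Mt1 held 1 match, at position -23 from the start site, and that of Mt2 held 3, at positions -223, -128 and -50, the last on the minus strand. Of the 32851 windows of this length in the table, 21.4% held at least 1 match and 5.17% at least 2. Start sites are the annotated ones, and bases past them were not searched. Elements there would be missed, so the 2 counts cannot be compared as counts per promoter. The letters describe the windows and carry no reading of factor binding.

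Of 24 measured NRF2 targets, 5 were called higher and 2 lower. Hmox1, heme oxygenase, read 10.72, 10.16 and 10.56 at the low dose and 12.58, 11.97 and 11.99 at the high dose (log2 FC 1.7 ± 0.38, adjusted p = 0.000624). All low-dose samples were already near or over the top of the PBS controls (7.53 to 10.19), of which 1 stood far below the others. Srxn1, sulfiredoxin, rose by a smaller step, from 10.11, 9.81 and 10.03 to 10.69, 10.59 and 10.81 (log2 FC 0.71 ± 0.12, adjusted p = 7.26e-06). Gpx2, Ftl1 and Fth1 were the other genes called higher, at 0.75, 0.7 and 0.58. The glutathione transferase Gstm1 fell, with 13.3, 13.6 and 13.32 against 11.9, 12.29 and 12.06 (log2 FC -1.33 ± 0.18, adjusted p = 1.18e-07), and so did catalase, Cat, at -0.6. Nqo1 (0.28) and Gclm (0.16), both standard NRF2 targets, were not called. With median centring 1 NRF2 target was called higher and 1 lower. Of 14 heat shock genes, 0 were called in either direction by limma, at a median log2 FC of -0.19. Of 18 p53 targets, 1 was called, Gdf15, a secreted stress cytokine (log2 FC 1.44 ± 0.14, adjusted p = 4.32e-11), while Cdkn1a, the cell cycle inhibitor p21, had a log2 FC of 0.51. Without S2 at 40 μg/mouse 5 p53 targets were called higher, without S3 at 2.5 μg/mouse 3, without any 1 of the other 4 samples 2, and with the replicate block 2.

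Matrix genes formed one of the 2 lists with the most members called higher. Of 27 measured, 16 were higher and 0 lower (59.3%), with a median log2 FC of 1.06. After Spp1 and Timp1 came Tnc, tenascin C, an adhesion-modulating protein of wounds, at 6.78, 6.41 and 6.82 against 8.98, 9.07 and 9.19 (log2 FC 2.41 ± 0.19, adjusted p = 1.06e-13). Eln, elastin, read 8.83, 8.53 and 9.11 against 11.01, 10.83 and 11 (log2 FC 2.12 ± 0.26, adjusted p = 8.2e-09). Both were clearly separated at every sample, and Tnc at 2.5 μg/mouse was close to its PBS controls (6.33 to 6.7). The fibrillar collagens Col1a1 (1.94), Col5a1 (1.82), Col3a1 (1.52) and Col1a2 (1.06) and the collagen cross-linking enzyme Lox (1.71) were called higher, as were the proteases Mmp8 (1.91), Mmp14 (1.11) and Mmp3 (0.87). Mmp12, the macrophage elastase (-0.38), Mmp2 (-0.15) and Mmp9 (0.41) were not. The summed intensity of the list was 96180 to 100520 at 2.5 μg/mouse and 196702 to 217166 at 40 μg/mouse. This rise ran beside values for fibroblast and smooth muscle markers of 123775 to 128735 and 73662 to 99460, with 1 of 11 markers lower (Npnt, -0.66) and Acta2 and Pdgfra at 0.21 and -0.1. The part of these markers in the matrix result was not tested, and Npnt was not called without S2 at 2.5 μg/mouse or S1 at 40 μg/mouse.

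Every one of 30 measured genes of the mitotic cell cycle was called higher, with log2 FC from 0.61 to 1.89 and a median of 1.32. Rrm2, a subunit of ribonucleotide reductase, which makes deoxynucleotides, read 9.52, 9.09 and 9.57 against 11.53, 11.1 and 11.23 (log2 FC 1.89 ± 0.21, adjusted p = 8.33e-10). Ccna2, cyclin A2, read 8.42, 8.18 and 8.42 against 10.41, 9.91 and 10.21 (log2 FC 1.84 ± 0.21, adjusted p = 1.2e-09). Mki67, the proliferation marker Ki-67, read 10.24, 10.17 and 10.43 against 11.91, 11.52 and 11.7 (log2 FC 1.43 ± 0.19, adjusted p = 5.39e-08). In these 3 genes all low-dose samples were over the highest PBS control (8.95, 7.82 and 9.56), so the 40 μg/mouse samples stood highest of the 3 sets. The mitotic kinases Plk1 (1.61) and Aurka (1.58) and the survivin gene Birc5 (1.64) were among the larger changes, and the replication factors Mcm2 (0.77) and Pcna (0.61) among the smaller. Median centring left 27 of the 30 called.

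Of 20 acute phase genes, 10 were higher and 1 was lower. Saa3, the serum amyloid A of inflamed tissue, read 13.87, 11.66 and 13.61 at 2.5 μg/mouse and 15.08, 14.99 and 15.4 at 40 μg/mouse (log2 FC 2.11 ± 0.61, adjusted p = 0.00874). S2 at 2.5 μg/mouse was by far the lowest sample, and the call was lost without it. Saa1, its paralog, had the same low S2 (11.52, 9.59 and 11.38 against 12.91, 12.64 and 13.19, log2 FC 2.09 ± 0.48, adjusted p = 0.000949), and its call too was lost without this sample. Saa family probes and those of Orm1 and Orm2 (2.46) may share signal between paralogs. Lcn2, lipocalin 2, was well over the PBS controls (11.9 to 13) at both doses, with 14.41, 14.13 and 14.44 against 14.75, 14.77 and 15.29, and was not called (log2 FC 0.61 ± 0.34, adjusted p = 0.23). The member called lower was complement C3 (-0.79). Without S2 at 2.5 μg/mouse, and with loess normalization, 6 of the 20 were called higher. Loess took only arrays with 2 samples and so lacked this S2 too, which leaves the 2 settings not separate.

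Of 17 chemokine genes that draw monocytes and T cells, 5 were higher and 2 lower. The 5 became 2 without S2 at 2.5 μg/mouse or with loess, which lacked that sample too. They became 3 with median centring and 8 with the replicate block on the 6 samples. Ccl2, the main monocyte chemoattractant, read 10.57, 9.37 and 10.71 against 12.65, 12.15 and 12.33 (log2 FC 2.16 ± 0.48, adjusted p = 0.000486). Ccl7 read 8.43, 7.53 and 8.88 against 10.6, 10.04 and 10.34 (log2 FC 2.04 ± 0.51, adjusted p = 0.00217), a call that was lost without S2 at 2.5 μg/mouse. Cxcl10, an interferon-inducible T cell attractant, differed by 1.9 ± 0.57, while 0 of 15 interferon response genes were higher and 1 was lower (Gbp3, -0.88). Without S2 at 2.5 μg/mouse or S1 at 40 μg/mouse, Cxcl10 was not called. Ccl5 (-1.59) and Cx3cl1 (-1.11) were lower. Of 11 neutrophil chemoattractants, 2 platelet chemokines were called higher, Pf4 (0.84) and Ppbp (0.72), and the call of Ppbp was lost without S1 at 40 μg/mouse. Neither was called with median centring, Pf4 was not called with loess (without S2 at 2.5 μg/mouse), and 4 members were called higher with the replicate block. Cxcl1 was not called, at 9.58, 8.4 and 9.05 against 9.91, 9.49 and 10.3 (log2 FC 0.89 ± 0.41, adjusted p = 0.125), with all low-dose samples over the PBS controls (7.42 to 8.29). Cxcl2 had a log2 FC of 0.62 ± 0.28 and was not called either. Of the 11 members, 5 were well above background in all 6 samples. Csf3, Il17a, Il17f and Il23a were so in none, and Cxcl2 and Cxcl3 not in all.

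Of 19 cytokine genes, 5 were higher and 0 lower. Areg, amphiregulin, an epidermal growth factor receptor ligand of tissue repair, read 7, 6.76 and 6.78 against 8.8, 8.74 and 8.77 (log2 FC 1.93 ± 0.21, adjusted p = 6.49e-10). Il6 read 6.05, 5.77 and 5.82 against 7.25, 6.95 and 7.12 (log2 FC 1.22 ± 0.32, adjusted p = 0.00365). Il33, an alarmin of epithelial and stromal cells, read 9.52, 9.15 and 9.48 against 10.62, 10.5 and 10.44 (log2 FC 1.14 ± 0.21, adjusted p = 2.61e-05). All 3 were separated between doses without overlap. Il1b (0.73 ± 0.31) and Tnf (0.33 ± 0.22) were not called. Of 17 NF-kB feedback genes, 3 were higher, led by Cd14, a lipopolysaccharide co-receptor (1.24), and Socs3, an inhibitor of cytokine signalling (1.19), and 1 was lower (Traf1, -0.78). Of 16 hypoxia and glycolysis genes, 4 were higher, among them Hk2 (0.82) and Hif1a (0.71), and 0 were called with median centring. Of 17 genes of endoplasmic reticulum and amino acid stress, 4 were higher, led by Psat1, a serine synthesis enzyme (0.99), with 1 called higher after median centring, and 1 was lower, Herpud1 (-0.72), whose call was lost without S2 at 2.5 μg/mouse. None of 16 cholesterol genes was called in limma, with log2 FC up to 0.49.

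**Figure D2:**
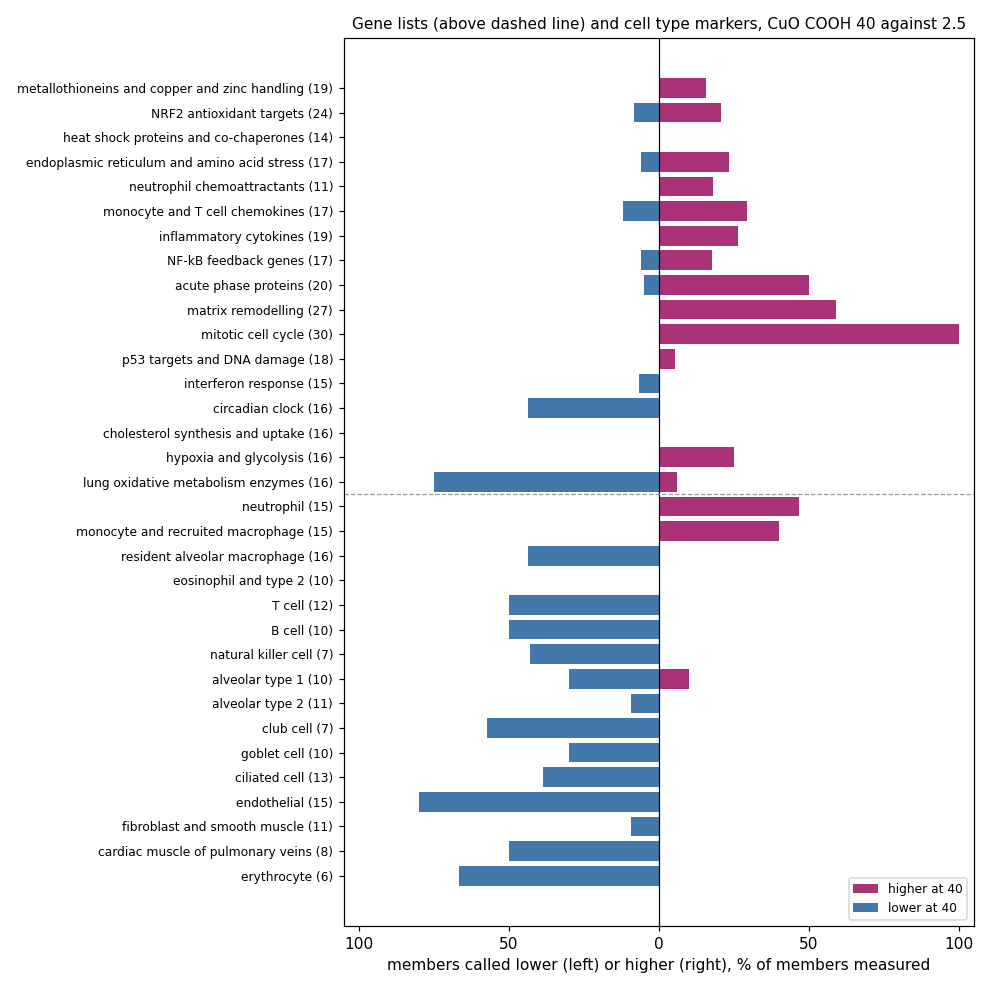
Share of the measured members of 17 gene lists and 16 cell type marker lists (number measured in brackets) called higher (right) or lower (left) at 40 against 2.5 μg/mouse CuO COOH, as percent of members. The mitotic list is called higher in full (100%), endothelial markers are called lower at 80%, and 0 heat shock, cholesterol and eosinophil genes are called.

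Marker genes of immune cells moved in both directions. In mixed tissue taken after lavage, fewer cells of a type, less RNA per cell and cells washed out cannot be told apart. Neutrophil markers were higher at 7 of 15 and lower at 0, with a median log2 FC of 0.86. They included the cystatin Stfa2l1, at 6.99, 7.16 and 7.48 against 9.37, 8.76 and 8.98 (log2 FC 1.83 ± 0.37, adjusted p = 0.000154), and the lectin receptor Clec4d (1.68). The granule protein gene Ltf, which airway glands also express, was at 1.62 and was not called without S3 at 2.5 μg/mouse or S1 at 40 μg/mouse. S100a8, the abundant neutrophil calcium-binding protein, was not called (11.56, 11.99 and 12.26 against 13.04, 12.66 and 12.73, log2 FC 0.87 ± 0.34, adjusted p = 0.0574), and 2 of its low-dose samples lay below the PBS controls (12.21 to 13.14). The summed neutrophil marker intensity was 70412 to 93102 in PBS controls, 60760 to 76973 at 2.5 μg/mouse and 69500 to 78146 at 40 μg/mouse, and these ranges overlapped. Markers of monocytes and recruited macrophages were higher at 6 of 15 and lower at 0. After Arg1 came Gpnmb, a glycoprotein of lipid-laden macrophages (1.71), and Trem2, a lipid receptor (1.36), with the chemokine receptor Ccr2 at 0.77.

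Markers of resident alveolar macrophages were lower at 7 of 16 and higher at 0. Fabp1, a fatty acid-binding protein, read 9.55, 9.63 and 9.41 against 6.7, 8.03 and 7.48 (log2 FC -2.13 ± 0.4, adjusted p = 4.95e-05). Ear2, an eosinophil-associated ribonuclease that these macrophages express, read 13, 13.17 and 13.21 against 10.83, 11.59 and 11.19 (log2 FC -1.92 ± 0.29, adjusted p = 6.95e-07). In both genes S2 was the highest of the samples at 40 μg/mouse, and all 3 lay below the low-dose samples. Ear1 (-1.78) and Ear10 (-1.88) are near-identical relatives of Ear2, and their probes may share its signal. Cidec, a lipid droplet protein (-2), and Siglecf (-0.77) were lower too. Marco (0.93), Mrc1 (0.05), Fabp4 (-0.15) and Pparg (-0.47) were not called. The summed level of the list was 45976 to 46667 at 2.5 μg/mouse and 22399 to 25883 at 40 μg/mouse.

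Lymphocyte markers were lower and none was higher, at 6 of 12 for T cells, 5 of 10 for B cells and 3 of 7 for natural killer cells. Cd2, an adhesion receptor of T and natural killer cells, read 11, 11.07 and 11.33 against 9.57, 10.1 and 9.6 (log2 FC -1.38 ± 0.17, adjusted p = 1.23e-08). Gzma, a cytotoxic granule protease, read 12.04, 11.99 and 12.48 against 10.61, 10.99 and 10.06 (log2 FC -1.62 ± 0.25, adjusted p = 1.55e-06). Jchain, the joining chain of secreted antibodies, read 9.96, 10.49 and 10.92 against 9.07, 8.93 and 8.56 (log2 FC -1.6 ± 0.26, adjusted p = 2.67e-06). In each gene the groups did not overlap. With median centring, and without S3 at 40 μg/mouse, 3 T cell markers were called lower. Cd79b, a chain of the B cell receptor complex (11, 11.56 and 12.42 against 10.52, 10.65 and 10.05), and Ms4a1 (-1.21) were highest in S3 at 2.5 μg/mouse, and both calls were lost without that sample. Ms4a1 was not called without S3 at 40 μg/mouse either, and the B cell count was 1 without S3 at 2.5 μg/mouse, 2 without S3 at 40 μg/mouse and 1 with the replicate block on the 6 samples. Cd4 (-0.1), Cd8a (-0.18) and Cd3e (-0.27) were not called. None of 10 eosinophil and type 2 genes was called by limma, and Epx, Il5 and Il13 were not well above background in any of the 6 samples.

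The greatest fall of any gene was that of Clca1, a secreted protein of mucous airway cells. Its level was 11.29, 12.37 and 14.1 at 2.5 μg/mouse, 12.29, 10.53 and 9.53 at 10 μg/mouse and 8.32, 7.92 and 8.02 at 40 μg/mouse (log2 FC -4.5 ± 1.02, adjusted p = 0.000737). The PBS controls ran from 6.66 to 8.89, median 7.69, so that the low-dose samples stood over every control and the high-dose samples inside the control range. The spread among low-dose samples was wide (SD 1.42), whereas the high-dose samples lay close together (SD 0.21). Tff2, a trefoil peptide secreted with mucus, had the same order, with 10.34, 10.04 and 10.38 at 2.5 μg/mouse, 10.29, 10.42 and 9.78 at 10 μg/mouse, 7.98, 8.54 and 8.14 at 40 μg/mouse and 7.81 to 8.86 in PBS controls (log2 FC -2.04 ± 0.52, adjusted p = 0.00277). Of 10 goblet cell markers these and Spdef (-0.72), a transcription factor of mucous cells, were lower, and Spdef lost its call without S1 or S3 at 2.5 μg/mouse and without S2 or S3 at 40 μg/mouse. The mucin genes Muc5ac (-0.7) and Muc5b (-0.59) and Agr2 (0.42) were not called. No member of the list was higher.

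Club cells, the secretory cells of small airways that metabolise foreign compounds, had 4 of 7 markers lower, or 2 without S2 at 2.5 μg/mouse. Scgb3a2, a secretoglobin, read 16.39, 16.09 and 16.2 against 13.28, 14.94 and 13.66 (log2 FC -2.27 ± 0.43, adjusted p = 5.46e-05), S2 being the highest of the samples at 40 μg/mouse. Scgb1a1, the major club cell product, was not called (17.33, 17.86 and 17.49 against 16.58, 17.16 and 17.13, log2 FC -0.6 ± 0.25, adjusted p = 0.085). Of 16 oxidative metabolism enzymes of lung, 12 were lower and 1 was higher (Gsto1, 0.61). Cyp2f2, a cytochrome P450 of club cells, read 16.32, 16.34 and 16.39 against 14.34, 15.25 and 14.47 (log2 FC -1.66 ± 0.3, adjusted p = 2.42e-05). Cbr2, carbonyl reductase, read 16.26, 16.49 and 16.25 against 14.42, 15.19 and 14.42 (log2 FC -1.66 ± 0.25, adjusted p = 7.85e-07). Cyp1a1, the inducible P450 of the aryl hydrocarbon receptor pathway, fell from 8.31, 7.86 and 8.06 to 6.17, 6.56 and 6.24 (log2 FC -1.75 ± 0.23, adjusted p = 5.64e-08). For all 3 enzymes the high-dose samples lay below every PBS control (15.92, 16.03 and 7.27 at the lowest). Of 13 ciliated cell markers, 5 were lower, led by the tubulin-binding protein gene Tppp3 at 13.96, 14.16 and 14.08 against 12.28, 12.87 and 12.45 (log2 FC -1.53 ± 0.18, adjusted p = 3.88e-09), while Foxj1, the master regulator of motile cilia, had a log2 FC of -0.03. Median centring called 5 enzymes and 3 ciliated markers lower, and without S1 at 40 μg/mouse 3 ciliated markers were lower.

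Endothelial markers were lower at 12 of 15 and higher at 0, with a median log2 FC of -0.76 and 15 of 15 below 0. Plvap, a protein of endothelial fenestrae and vesicles, read 13.92, 14.16 and 14.09 against 12.71, 13.27 and 13.04 (log2 FC -1.05 ± 0.17, adjusted p = 4.88e-06). Eng, endoglin, a co-receptor for transforming growth factor beta, read 12.23, 12.66 and 12.23 against 11.15, 11.55 and 11.39 (log2 FC -1.01 ± 0.17, adjusted p = 6.3e-06). Pecam1 (-0.74), Kdr (-0.81) and Cldn5 (-0.86) were called lower, and Cdh5 (-0.45) was not. With median centring 3 were called. Of 10 type 1 markers, 3 were lower, among them Clic5 (-0.88), and 1 was higher, Pdpn (0.64). With median centring 0 type 1 markers were called in either direction, and without S3 at 40 μg/mouse 1 was lower. Pdpn was not called without S2 at 2.5 μg/mouse or S1 at 40 μg/mouse. Ager, which encodes the receptor RAGE, had a log2 FC of -0.2 ± 0.15. Of 11 type 2 markers, Sftpa1 was lower (-0.61, lost without S3 at 40 μg/mouse), and Sftpc, surfactant protein C, read 17.58, 17.46 and 17.11 against 17.3, 17.49 and 17.41 (log2 FC 0.02 ± 0.19, adjusted p = 0.976).

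Of 16 circadian clock genes, 7 were lower and 0 higher. Dbp, a transcription factor driven directly by the clock, read 14.41, 14.88 and 14.3 against 12.23, 13.22 and 12.35 (log2 FC -1.93 ± 0.28, adjusted p = 5.23e-07). Nr1d1, the clock repressor REV-ERB alpha, read 10.5, 11.25 and 10.78 against 8.62, 9.34 and 8.93 (log2 FC -1.88 ± 0.28, adjusted p = 9.12e-07). In both, the low-dose samples lay at the level of the PBS controls (14.23 to 14.86 and 10.35 to 11.2), and S2 was the highest sample of its group at each dose. Hlf (-1.25), Tef (-0.89), Nr1d2 (-0.78), Cry2 (-0.76) and Per3 (-0.75) were the others. Arntl, which encodes the activator BMAL1, had a log2 FC of 0.31 and Per1 and Per2 of -0.31 and -0.36, none of them called. With median centring 4 clock genes were called lower. The hour of tissue collection is not given for each sample in the sources used here, so that these levels cannot be set against the time of day. The call of Hlf was lost without S2 at 2.5 μg/mouse or S1 at 40 μg/mouse.

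**Figure D3:**
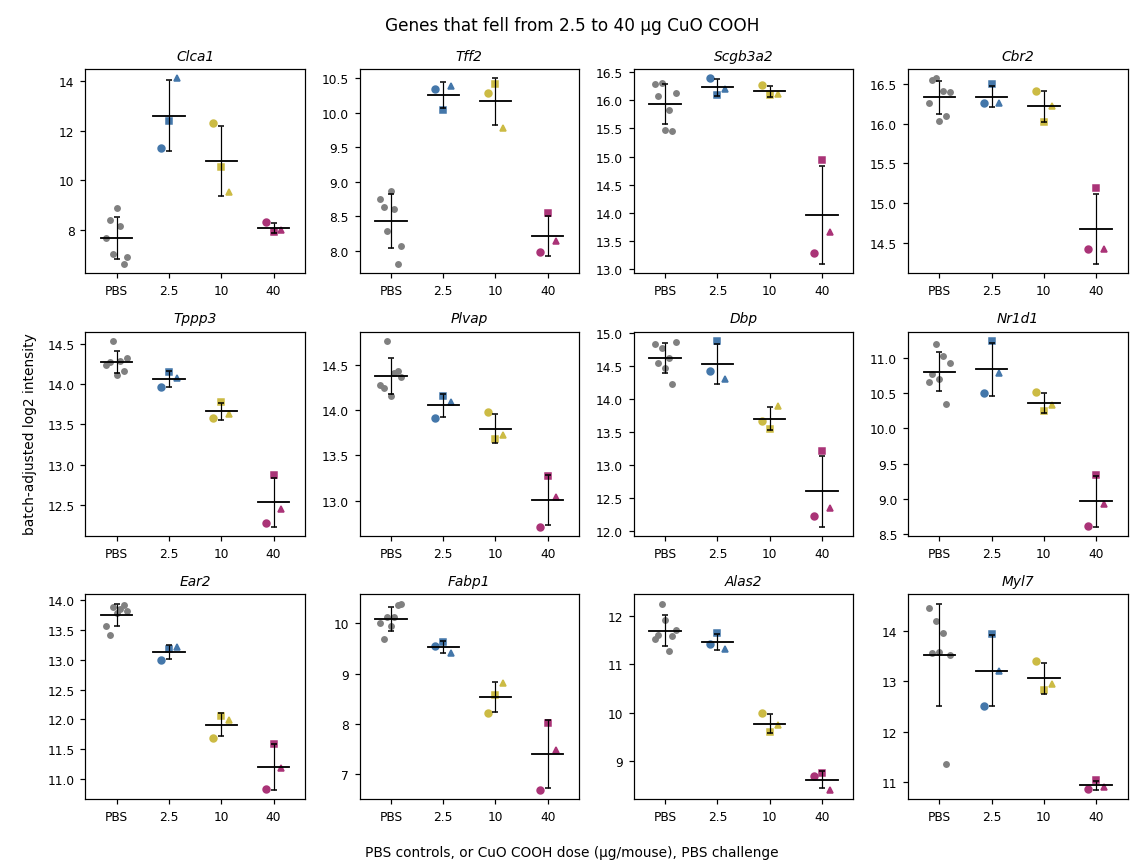
Batch-adjusted log2 intensity (vertical axes, own scale per gene) of 12 genes that fell from 2.5 to 40 μg/mouse CuO COOH, in the 7 PBS controls (grey) and the 3 samples at each dose (circle S1, square S2, triangle S3), with mean (line) and SD (bar). Clca1 and Tff2 stand over the controls at 2.5 μg/mouse and among them at 40 μg/mouse, while Ear2 and Fabp1 fall with each dose. A single PBS control lies far below the rest for Myl7, at 11.36.

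Red cell genes were lower at 4 of 6 markers, by large steps. Hbb-bt, a beta globin, read 16.21, 16.18 and 16.63 against 13.35, 13.44 and 12.89 (log2 FC -3.11 ± 0.29, adjusted p = 7.27e-12). Alas2, the first enzyme of heme synthesis in red cell precursors, read 11.42, 11.65 and 11.32 against 8.69, 8.75 and 8.41 (log2 FC -2.85 ± 0.29, adjusted p = 9.02e-11). The summed intensity of the 6 markers was 196835 to 303303 in PBS controls, 202902 to 297230 at 2.5 μg/mouse and 32126 to 53436 at 40 μg/mouse, with no overlap between the doses. Hbb-b1 (-3.09) and Hbb-b2 (-2.98) are close paralogs of Hbb-bt, whose probes may share signal. Heart muscle genes, which lung tissue holds in the sleeves of the pulmonary veins, were lower at 4 of 8. Myl7, an atrial myosin light chain, read 12.51, 13.94 and 13.2 against 10.87, 11.04 and 10.9 (log2 FC -2.28 ± 0.76, adjusted p = 0.0246), and its 7 PBS controls ran from 11.36 to 14.46. The summed intensity of the 8 genes was 8811 to 49472 in PBS controls, 16236 to 39490 at 2.5 μg/mouse and 8018 to 9654 at 40 μg/mouse. The calls of Myl7, Myl4, Myh6 and Tnni3 were each lost without S2 at 2.5 μg/mouse, and 0 of them remained with median centring. Leaving out 1 of the 6 samples in turn ended the call in 5 cases for Tnni3, 4 for Myl7, 3 for Myh6 and 1 for Myl4. The part of these red cell and heart muscle differences in the other results was not tested.

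The remaining genes with the greatest falls were Cfd, Igfbp3 and Colq. Cfd, complement factor D, a product of fat cells, read 11.44, 11.77 and 10.57 against 8.26, 9.34 and 8.35 (log2 FC -2.61 ± 0.69, adjusted p = 0.00368). Igfbp3, which binds insulin-like growth factors, read 12.6, 12.84 and 12.63 against 10.24, 10.24 and 10.19 (log2 FC -2.47 ± 0.21, adjusted p = 7.8e-13). Colq, the collagen tail of acetylcholinesterase, read 10.84, 10.95 and 11 against 8.27, 9.03 and 8.38 (log2 FC -2.37 ± 0.23, adjusted p = 1.54e-11). The 3 high-dose samples of Igfbp3 were almost equal, far under its lowest PBS control at 12.65.

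The 10 μg/mouse samples showed how the step divided, each part being a 4-fold rise in dose. They carried the other dye than the same-numbered samples at 2.5 and 40 μg/mouse, and dye is a term of the fit. From 2.5 to 10 μg/mouse, 303 genes were called (1.32%), 233 higher (1.02%) and 70 lower (0.306%). From 10 to 40 μg/mouse, 417 were called (1.82%), 229 higher (1%) and 188 lower (0.821%). Both parts share the 10 μg/mouse samples. Leaving out 1 sample moved these counts widely, to 129 without S2 at 2.5 μg/mouse and 128 without S1 at 10 μg/mouse for the first part. For the second part they were 143, 634 and 258 without S1, S2 and S3 at 40 μg/mouse and 277 without S1 at 10 μg/mouse. Loess normalization, which also lacked S2 at 2.5 μg/mouse, gave 131 for the first part, 81 higher and 50 lower. Median centring gave 84 for the first part and 159 for the second, 128 higher and 31 lower.

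Of the 1455 DEGs of the whole step, the mean at 10 μg/mouse lay between the means at 2.5 and 40 μg/mouse in 1416. The median share of the change present at 10 μg/mouse was 0.473 for genes that rose (quartiles 0.37 and 0.576) and 0.421 for genes that fell (quartiles 0.233 and 0.575). In 96 DEGs both parts were called in the direction of the whole, and in 909 neither was. The mitotic list had 21 of 30 genes higher in the first part and 12 in the second, and the matrix list 10 of 27 in each. Acute phase genes had 8 of 20 higher from 2.5 to 10 μg/mouse, and 0 higher and 1 lower from 10 to 40 μg/mouse. Whether the parts differ was not tested for any list or gene, and the counts move with single samples as above. Saa3 was among the genes with a called first part and under 0.2 log2 units of change in the second, at 1.95 ± 0.58 and 0.17 ± 0.6. Cd14 (1.13 and 0.11), Phgr1 (1.34 and 0.11) and Rgs16, a regulator of G protein signalling (1.22 and -0.08), had this pattern too, which 57 genes met.

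The converse, a called second part after less than 0.2 log2 units in the first, was met by 125 genes. It was led by Cfd (-0.19 and then -2.42), Scgb3a2 (-0.07 and -2.2), Tff2 (-0.09 and -1.95) and Cbr2 (-0.12 and -1.54). Scgb3a2 at 10 μg/mouse read 16.27, 16.09 and 16.12, as at 2.5 μg/mouse. No club, ciliated, goblet or endothelial marker was called from 2.5 to 10 μg/mouse, and 4, 6, 1 and 5 were lower from 10 to 40 μg/mouse. Of all genes, 0.306% and 0.821% were called lower in these parts. Median log2 FC in the first part was 0.12, 0.11, 0.03 and -0.21. The summed endothelial intensity was 117776 to 136236 at 2.5 μg/mouse, 99212 to 107231 at 10 μg/mouse and 66081 to 79194 at 40 μg/mouse. Of 16 resident macrophage markers, 6 were lower in the first part and 1 in the second, a difference that was not tested. A single gene was called in both parts in opposite directions, Olfr508, an odorant receptor gene that was not well above background at 2.5 or 40 μg/mouse. Its pattern rested on S1 at 10 μg/mouse, whose samples read 7.39, 5.96 and 6.03.

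The same step of dose was measured for core CuO and for PEGylated particles (CuO PEG) in PBS-challenged mice, and for CuO COOH in OVA-challenged mice, with 6 samples each and none in common with the 6 described here. The doses match in mass of material and differ in copper. Core CuO had 1282 DEGs between 40 and 2.5 μg/mouse (5.6%), of which 905 were also called in the same direction for CuO COOH, or 62.2% of the CuO COOH list and 70.6% of the core CuO list. For CuO PEG the step had 603 DEGs (2.63%), and 439 were shared (30.2% and 72.8%). For CuO COOH under OVA challenge it had 704 DEGs (3.07%), and 471 were shared (32.4% and 66.9%). At the 1455 DEGs of CuO COOH, the median ratio of the other step to the CuO COOH step was 0.825 for core CuO, 0.538 for CuO PEG and 0.543 under OVA challenge. These values are drawn down by the choice of genes on the CuO COOH step. At the genes called in the other step instead, the median ratio of the CuO COOH step to the other was 0.959, 1.06 and 0.982. These in turn are drawn down by the choice of genes on the other step.

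The difference between the steps was then tested directly. Against core CuO, 2 genes differed (0.00873%), with 1342 at an unadjusted p below 0.05. Anxa10, a calcium-dependent membrane-binding protein, was not well above background in any of the 3 CuO COOH samples at 2.5 μg/mouse. It read 6.7, 7.03 and 6.75 at 40 μg/mouse, 2.5-fold higher in measured intensity, which is no exact size. Its step was 0.21 with core CuO (difference 1.12 ± 0.16, adjusted p = 0.000189). Itih4, an acute phase protease inhibitor chain, stepped by 0.48 with CuO COOH and -1.08 with core CuO (difference 1.56 ± 0.28, adjusted p = 0.00861). This count was 1 without S2 or S3 of CuO COOH at 40 μg/mouse, without S2 at 2.5 μg/mouse, and without S2 or S3 at 40 μg/mouse or S2 at 2.5 μg/mouse of core CuO. S3 of core CuO carried Cy3 at 40 μg/mouse and Cy5 at 2.5 μg/mouse, and dye is a term of the fit. The other genes are not shown to step alike. The median SE of the difference was 0.154, and for Mt2, for example, the difference was 1.19 with a range of 0.38 to 2.01 (2 SE to each side, adjusted p = 0.677).

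Against CuO PEG, 133 genes differed (0.581%), 70 with the more positive step in CuO COOH and 63 with the more negative. Of these, 96 were called in the CuO COOH step, 36 in the CuO PEG step and 13 in both. Retnlb stepped by 4.14 with CuO COOH and 0.8 with CuO PEG (difference 3.35 ± 0.6, adjusted p = 0.000806). Has2, a hyaluronan synthase, also had the more positive step with CuO COOH (difference 1.67 ± 0.27). So did Ereg (adjusted p = 0.000641 in limma), whose difference has no exact size, its level at 2.5 μg/mouse being not well above background. Cxcl5, a neutrophil-attracting chemokine of alveolar epithelium, lay at the other end, stepping by 0.22 with CuO COOH and 3.88 with CuO PEG (difference -3.67 ± 0.8, adjusted p = 0.00912). With CuO COOH it read 8.4, 7.2 and 8.72 at 2.5 μg/mouse and 9.44, 9.65 and 9.06 at 10 μg/mouse. It read 8.52, 7.92 and 8.53 at 40 μg/mouse, and PBS controls ran from 5.72 to 7.6. Vnn1, a pantetheinase (-2.42 ± 0.33), and Ly6i (-2.41 ± 0.52) had the next most negative differences. Of the matrix list 4 members differed, of the acute phase list 3, of each chemokine list 2, of red cell markers 3 and of the mitotic list 0. The count was 79 without S3 and 88 without S1 of CuO COOH at 40 μg/mouse. The 2 materials lay on different slides, which the fit holds as a term, and S3 of CuO PEG lay on different slides at the 2 doses. Median spot brightness of the 6 CuO PEG samples was 60 to 71, or 1.37 to 2.65 times background. For CuO COOH it was 85 to 180, or 2.29 to 3.81 times. The part of brightness in these differences was not tested.

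Between PBS and OVA challenge, the CuO COOH step differed at 14 genes (0.0611%), 11 with the more positive step under PBS. The OVA-challenged doses were not matched by number. Their S3 lay on slide 2 at 40 μg/mouse and slide 3 at 2.5 μg/mouse, and their S2 carried Cy3 and Cy5. Dye and slide are terms of the fit. Fxyd4, a regulator of the sodium pump, stepped by 1.79 under PBS and -0.89 under OVA (difference 2.68 ± 0.57, adjusted p = 0.038). Igf1, a growth factor that lung macrophages also make, stepped by 1.97 and 0.01 (difference 1.96 ± 0.37), and Tmem213 by 1.95 and 0.09 (difference 1.86 ± 0.3). On the other side were Batf2 (-0.94), Ly6c2 (-0.9) and Ccrl2 (-0.77). Rrm2 and Il33 were also among the 14, and were chosen after their values were seen. With the replicate number as a block the count was 62. It fell to 1 without S2 at 2.5 μg/mouse and to 4, 7 or 8 without S1 at 40, S1 at 2.5 or S3 at 40 μg/mouse, and it was 25 without S2 at 40 μg/mouse (all PBS-challenged). Without OVA-challenged S1 or S3 at 40 μg/mouse it was 5, without S3 at 2.5 μg/mouse 7 and without S2 at 2.5 μg/mouse 9.

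**Figure D4:**
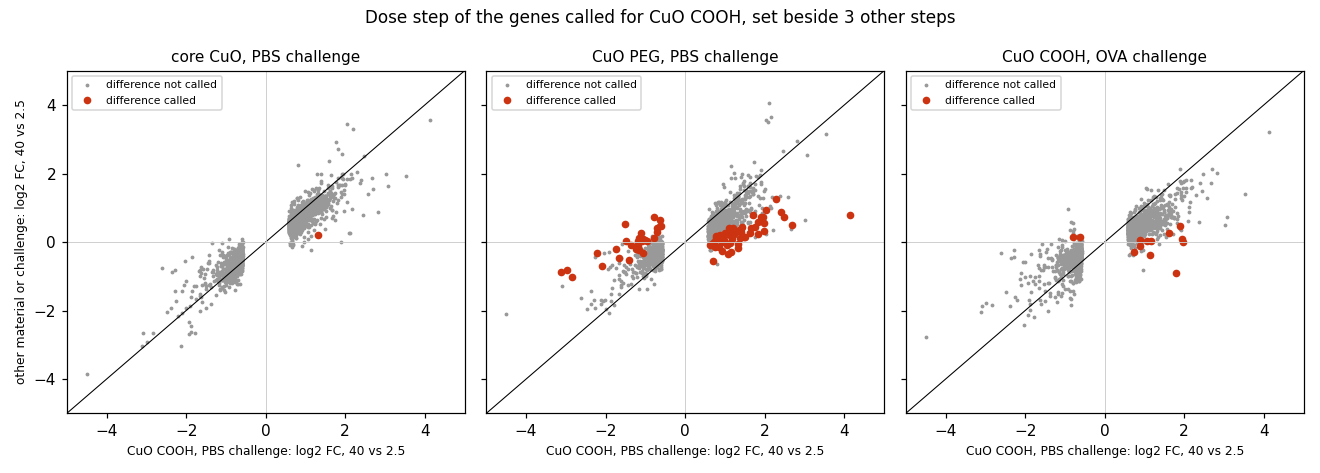
Log2 FC of 40 against 2.5 μg/mouse for the 1455 DEGs of CuO COOH in PBS-challenged mice (horizontal axis) and for core CuO, CuO PEG and OVA-challenged CuO COOH (vertical axes, one panel each), with the line of equality. Red points are DEGs whose step differed between the 2 conditions (1, 96 and 13 of the 1455), and most grey points of the CuO PEG and OVA panels lie nearer to 0 than the line.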

How the data were processed

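Each sample was 1 channel of an Agilent mouse array, and 43 of 46 arrays held 2 samples. The deposited scanner files gave the median foreground intensity of each spot, per the file headers from Agilent Feature Extraction 12.0.2.2. The deposited value table holds log2 values that the authors had quantile-normalized and adjusted for batch, and it served as an alternative here. Intensities were set on the log2 scale and quantile-normalized over 89 samples. Control spots and outlier spots were left out, probes were averaged, and 32994 of 56605 probes gave 22911 genes. With limma 3.58.1 in R 4.3.3, 26 groups were fitted with dye, slide and array position as terms, and p-values were adjusted by Benjamini-Hochberg over all genes. The thresholds were adjusted p below 0.05 and an absolute log2 FC above 0.58 (1.5-fold). Levels printed have dye, slide and position removed. A gene not well above background in every sample of a group has no exact level there. Folds against such a group are those of the measured intensities. The number of arrays limits the precision, and p-values measure the spread between pools of 2 RNA samples. Doses are given in μg/mouse after the study's methods, and each is the amount of 1 administration. Figures were drawn with Python 3.11.15 and matplotlib 3.10.9. The fit was tested on simulated data.

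Named genes were the 8 greatest rises and falls among called genes without overlap of the doses that were well above background in the higher group, symbols beginning with Gm or LOC or ending in Rik left out, up to 4 called members per list, fixed genes, up to 3 per direction of each difference between steps, and genes with unequal parts of the step. Genes outside this rule stand as further members of their list. Some named genes are not reported here. The members and lists were chosen with earlier results of these data known. Replicate numbers of the 40 and 2.5 μg/mouse samples pair them, since each number shared a slide and a dye, and deviations from group means correlated within pairs at 0.323, 0.315 and 0.29 across genes. No 2 samples held identical values. Alternatives were other batch terms, the replicate block, ComBat, normexp, loess, median centring, a filter on dim genes, the deposited table and leaving out each sample.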

Additional observations from a re-analysis of the deposited data

Results flagged for a closer look

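At 12 of 138 genes, 1 of the 7 PBS controls stood apart from the nearest of the others by a large part of the controls' whole range, a gap that chance gives in about 1 of 20 groups. The gap is given as a share of that range. Control 6 was the lowest for the heart muscle genes Myh6 (0.7449), Myl4 (0.5681), Myl7 (0.6955, with 11.36 against 13.52 in the next sample) and Tnni3 (0.6015) and for Itih4 (0.6167). Control 4 was the highest for Dmbt1 (0.6299), Mt2 (0.6) and Saa1 (0.6669). Control 1 was the lowest for Hmox1 (0.6454, with 7.53 against 9.25) and the highest for S100a8 (0.5886). Control 3 was the highest for Colq (0.6418) and control 2 for Srxn1 (0.6051). The controls enter the 40 against 2.5 μg/mouse difference only through the shared variance and batch terms.

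The step of CuO COOH differed from that of core CuO at 2 genes in limma's test of the difference, Anxa10 by 1.12 and Itih4 by 1.56 on the log2 scale. Anxa10 and Ereg were not well above background at 2.5 μg/mouse, so that their fitted differences are no exact sizes. It differed from that of CuO PEG at 133 genes, with Retnlb at 3.35, Ereg at 1.74 and Has2 at 1.67 on the side of CuO COOH and Cxcl5 at -3.67, Vnn1 at -2.42 and Ly6i at -2.41 on the other. Between PBS and OVA challenge it differed at 14 genes, with Fxyd4 at 2.68, Igf1 at 1.96 and Tmem213 at 1.86 on the side of PBS and Batf2 at -0.94, Ly6c2 at -0.9 and Ccrl2 at -0.77 on that of OVA.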

How the results depend on the processing

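Of the 121 named genes called in the 40 against 2.5 μg/mouse comparison, 25 kept their call under all alternatives, 48 lost it only with 1 term per array, 29 lost it when some sample was left out, 38 with median centring and 17 with loess. None of these 121 changed sign, whereas 13 of all 1455 genes called did with 1 term per array. With 1 term per array the counts were 200 for the whole step, 11 and 28 for its lower and upper parts, 996 for CuO PEG and 2 under OVA challenge, and the differences were called at 0 genes against core CuO, 0 against CuO PEG and 9 between challenges. The array as a random block gave 1 gene against core CuO, no batch terms gave 243 for the upper part, and loess gave 131 for the lower part. Median centring gave 84 for the lower and 159 for the upper part. S2 at 2.5 μg/mouse (PBS-challenged), alone on its array, added nothing to the fit with 1 term per array and was absent from loess. The cause of the changed counts was not tested. With the replicate number as a block the difference between challenges was called at 62 genes, the whole step at 1494 and, over the 6 samples alone, at 1498, and no other count of genes moved by over 1.5 times. Leaving out each sample gave 1219 to 1732 for the whole step, 128 to 330 and 143 to 634 for its parts, 998 to 1491 for core CuO, 499 to 596 for CuO PEG, 577 to 784 under OVA challenge, and 1 to 3, 79 to 172 and 1 to 25 for the differences from core CuO, CuO PEG and OVA challenge. Dim signal leaves Ereg and Anxa10 without exact sizes of change.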
